A study of Rattus norvegicus with 15 samples.

Results

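Transcripts of the transcription factors that drive skeletal muscle differentiation were followed in the rat myoblast line H9c2 over 14 days of culture with or without all-trans retinoic acid (RA). The factors were chosen by symbol from a list of 9 genes, namely Six4, Myod1, Myf5, Myf6, Myog, Tcf12, Mef2a, Mef2c and Mef2d. Of these, 7 had a row among the 11574 genes of the count table, and Myf5 and Myf6 were not analysed here. All 7 were measured in all 15 libraries.

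Skeletal muscle genes are switched on by a small relay of DNA-binding proteins. Homeodomain proteins such as Six4 act early and bind MEF3 sites. Myod1 marks committed myoblasts, and Myog (myogenin) is turned on as myoblasts leave the cell cycle and fuse into myotubes. Both are basic helix-loop-helix (bHLH) proteins that bind E-boxes as dimers with E proteins such as Tcf12, while Id proteins bind the E proteins and keep such dimers off DNA. MEF2 proteins bind A/T-rich sites beside E-boxes and act together with the bHLH factors on contractile genes.

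H9c2 is an established line of wild-type myoblasts derived from rat heart ventricle. The T0 cultures were taken 24 h after seeding in 10% serum, and all other cultures were moved to 1% serum and harvested at day 7 or day 14. The groups T7+RA and T14+RA received 1 µM RA daily, and T7-RA and T14-RA received none. Each of the 5 groups held 3 libraries from biological replicates. RA was dissolved in DMSO, and whether cultures without RA received DMSO is not given in the sources used here. In comparisons with T0, time in culture and the lower serum came together and cannot be told apart, and T0 has no counterpart with RA. Comparisons between day 7 and day 14 hold no change of serum level.

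The libraries held between 508397 and 1030820 counts, with 508397 to 768431 in T0, 666344 to 825712 in T7-RA, 551209 to 823546 in T14-RA, 585103 to 742925 in T7+RA and 544558 to 1030820 in T14+RA. At this depth the factors other than Myog had 10 to 175 counts per library, so modest changes were measured with wide errors. Levels are given as CPM, the counts scaled to a library total that is the same for all libraries after TMM correction, and comparisons between genes use CPM per kilobase of gene length. Of the 8 measured myoblast markers, Ncam1 stood at 707 ± 64.8, M-cadherin (Cdh15) at 638 ± 19.6 and Itga7 at 299 ± 19.3 CPM (SD, n = 3) at T0. Sdc4 stood at 138 ± 27.1, Cd82 at 132 ± 7.56 and Myod1 at 115 ± 40.2 CPM. Desmin had 0 to 7 counts and Vcam1 0 counts in the T0 libraries. Transcripts of smooth muscle actin (Acta2, 12684 ± 323 CPM) and of the fibroblast collagen Col1a1 (29893 ± 6673 CPM) were abundant there. Of 19 cardiac factors and markers, 5 had a row. At T0, Myocd stood at 99.1 ± 38.0 and Tnnt2 at 59.6 ± 4.65 CPM, Gata4 and Hand2 had group means between 8.50 and 16.5 CPM over the 5 groups, and Nkx2-5 and Tbx5 were not analysed here.

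The promoters of Myog and Mef2a are shown because these factors had the largest rises at day 14, and because the relay's binding motifs can be read in them. Of the 9 listed factors, 7 matched an entry in the RefSeq promoter table (assembly GRCr8), and Myod1 and Mef2c did not. The 250 bases before the annotated start are printed 5′ to 3′ on the gene's strand. Capitals mark matches to an E-box (CANNTG), to the core of a MEF2 site (TA, 4 letters that are each A or T, then TA) and to the MEF3 site TCAGGTTTC, searched on both strands.
Myog (chr13:48297226-48297475, plus strand): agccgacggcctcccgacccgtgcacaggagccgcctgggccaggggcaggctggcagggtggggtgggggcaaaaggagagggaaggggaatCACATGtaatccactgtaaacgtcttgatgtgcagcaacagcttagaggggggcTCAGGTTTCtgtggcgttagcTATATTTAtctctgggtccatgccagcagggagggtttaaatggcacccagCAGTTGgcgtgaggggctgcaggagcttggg
Mef2a (chr1:130392163-130392412, minus strand): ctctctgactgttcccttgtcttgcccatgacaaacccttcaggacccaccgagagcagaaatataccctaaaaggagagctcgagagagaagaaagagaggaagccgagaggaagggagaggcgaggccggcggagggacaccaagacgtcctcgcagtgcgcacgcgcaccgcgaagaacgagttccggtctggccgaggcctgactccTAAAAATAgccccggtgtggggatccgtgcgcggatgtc
In the Myog promoter the E-boxes CACATG and CAGTTG began 157 and 31 bases before the start, the MEF3 match TCAGGTTTC began 103 bases before it, and the MEF2 core TATATTTA began 82 bases before it. None of these matches overlapped. The Mef2a promoter held a MEF2 core, TAAAAATA, that began 39 bases before the start. The Myf6 window held the E-box CATCTG, 29 bases before the start, and the MEF2 core TATATATA, 75 bases before it. The windows of Myf5, Six4, Mef2d and Tcf12 held none of the 3 motifs. Among 33469 promoter windows of the same length, 65.5% held CANNTG, 9.1% held the MEF2 core and 0.37% held TCAGGTTTC. These matches describe the letters of the window and say nothing of binding in these cells.

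Per kilobase of gene length, Myod1 had the highest level of the 7 factors at T0, with 59.1 ± 20.6 CPM per kb (SD, n = 3). It was followed by Myog at 33.6 ± 6.95, Tcf12 at 31.9 ± 5.56, Mef2d at 28.6 ± 3.76, Mef2a at 22.4 ± 1.87, Mef2c at 13.2 ± 1.43 and Six4 at 4.81 ± 1.48 CPM per kb. At T0, Myod1 overlapped Myog through its replicate 3, and the values of Myog, Tcf12 and Mef2d overlapped. At day 14 without RA the order had changed. Myog led with 441 ± 4.53 CPM per kb, ahead of Mef2a at 67.7 ± 14.8, Myod1 at 41.2 ± 8.22, Tcf12 at 40.0 ± 11.2, Mef2d at 26.7 ± 3.66, Mef2c at 21.5 ± 1.80 and Six4 at 9.30 ± 1.54 CPM per kb. Myod1 and Tcf12 did not differ beyond their spread there. In total counts over the 15 libraries, Myog ranked 349 of 11574 genes and the other factors ranked between 1848 and 4295.

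**Figure D1:**
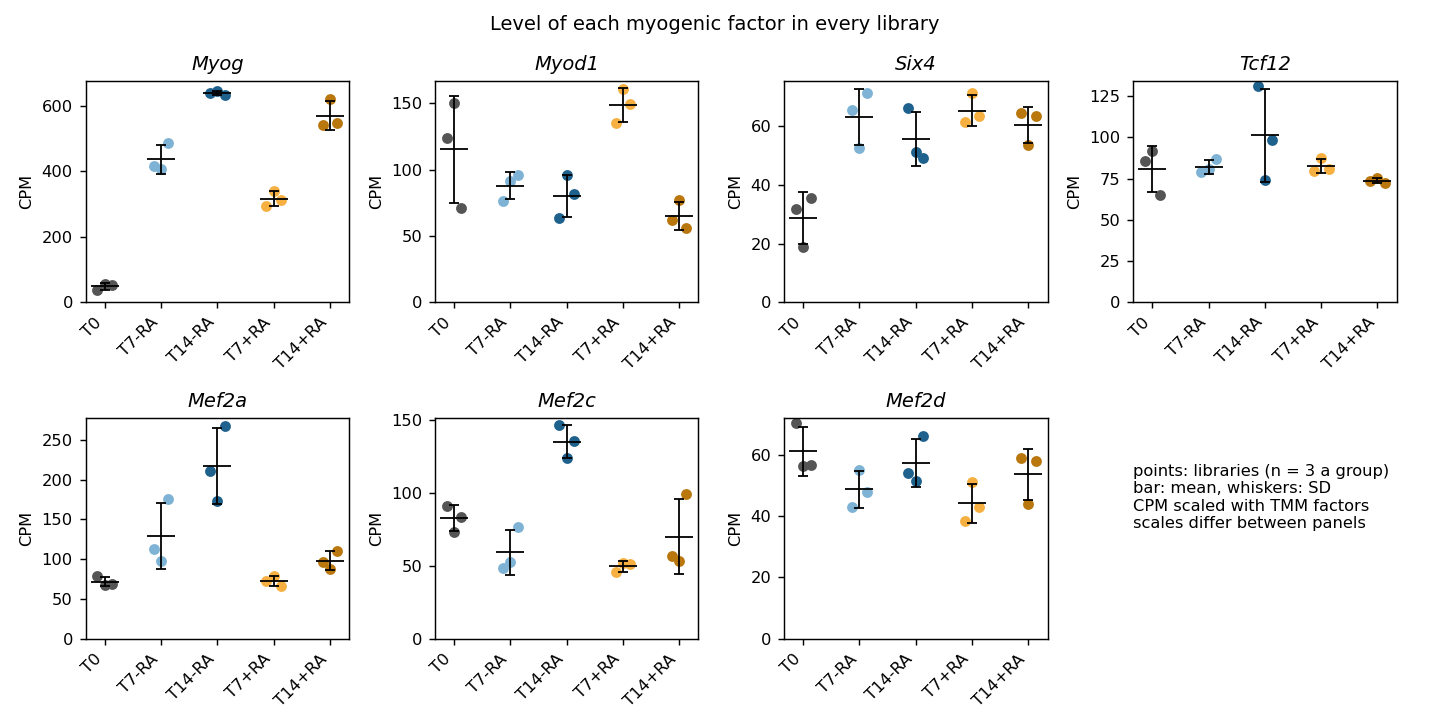
Level of each of the 7 factors in CPM (vertical axis, linear from 0, scale differs between panels) in the 5 groups (horizontal axis). Points are libraries, the horizontal bar is the mean and the whiskers are the SD (n = 3). Myog climbed from a mean of 48.6 CPM at T0 to 638 CPM in T14-RA, Mef2a and Mef2c were highest in T14-RA, and Myod1 was highest in T7+RA.

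All comparisons were made with edgeR on all genes, and a gene passed at an adjusted p under 0.001. The additive model takes the RA difference to be the same at both days. In it, the T7 and T14 terms give the difference of a day from T0 after allowing for RA. The RA term gives the mean difference with RA over both days. For the T7 term, 3 of the 7 factors passed, all higher (Myog, Mef2a and Six4), against 8.73% of all genes tested (4.29% higher and 4.44% lower). For the T14 term the same 3 factors were higher, against 17.3% of all genes (8.47% higher and 8.85% lower). For the RA term, Mef2a and Mef2c were lower, 2 of the 7 factors against 6.39% of all genes (3.33% higher and 3.07% lower). At an adjusted p under 0.05, 5 factors passed for the T14 term and 3 for the RA term, against 35.4% and 14.7% of all genes.

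The other comparisons set single groups against each other. In the first week without RA, 3 factors passed, all higher (8.78% of all genes passed), and in the second week without RA 3 passed, all higher (2.95%). In the second week with RA, 2 passed, Myog higher and Myod1 lower (4.67%). RA changed 0 of the 7 factors at day 7 by edgeR (3.17% of all genes passed), with 3 at an unadjusted p under 0.05 (Myog, Myod1 and Mef2a, against 17.2% of all genes) and 0 by DESeq2, limma-voom and limma-trend. With RLE factors Myod1 passed at day 7, and with only the compared groups these 3 factors passed, as they did at an adjusted p under 0.05 (7.41% of all genes). At day 14, 2 factors were lower with RA, Mef2a and Mef2c (4.81%). The difference between the RA changes of day 14 and day 7, tested directly at an adjusted p under 0.05, passed for 1 factor, Myod1 (0.743%). Comparisons that use the same group share its libraries, as the T7-RA cultures stand in both weeks without RA and in the comparison with RA at day 7.

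**Figure D2:**
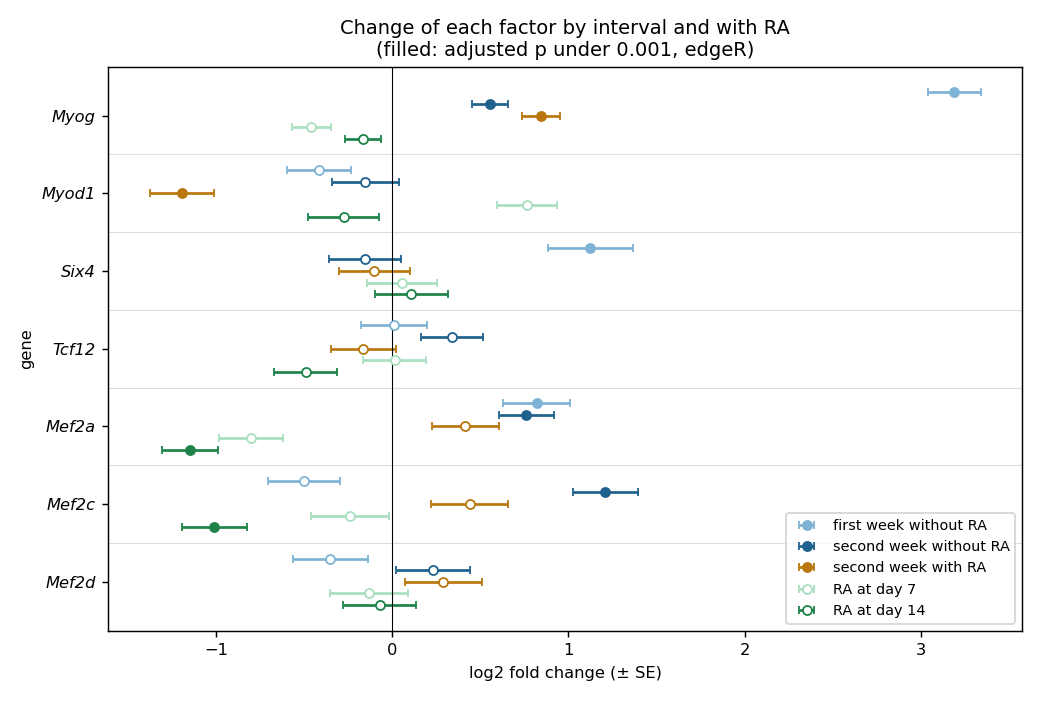
Log2 fold change (horizontal axis, whiskers are the SE from edgeR, 3 libraries per group) of each factor (vertical axis) over the first and the second week and with RA at each day. Filled points passed at an adjusted p under 0.001: Myog at 3.19 in the first week lies far to the right of all others, while Mef2a at -1.15 and Mef2c at -1.01 are the filled points for RA at day 14.

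Six4, a homeodomain protein that acts upstream of the bHLH factors and binds MEF3 sites, is at rat 6q24 (ENSRNOG00000007250). Its T0 libraries held 31.7, 18.8 and 35.6 CPM, the T7-RA libraries 65.6, 52.4 and 71.2 CPM, and the T14-RA libraries 66.1, 51.4 and 49.1 CPM. With RA it stood at 61.3, 71.1 and 63.4 CPM at day 7 and at 64.6, 53.4 and 63.5 CPM at day 14. All 12 later libraries were above all T0 libraries, and the 4 later groups overlapped one another. Six4 rose in the first week without RA by 2.18-fold (log2 1.12 ± 0.24 SE, adjusted p = 0.00028). It then stayed within the spread: the second-week log2 changes were -0.16 ± 0.21 without RA and -0.10 ± 0.20 with RA, and the RA term was 0.08 ± 0.14 (adjusted p = 0.807). Six4 had only 10 to 67 counts per library, and the call for the first week was lost without T0 replicate 1 or 2 or T7-RA replicate 1 or 3 (adjusted p 0.0012 to 0.00464). The T7 call was lost without T0 replicate 1 or 2 or T7-RA replicate 3 (0.001002 to 0.00414), and the T14 call without any of 7 libraries, namely T0 replicates 1 and 2, T7-RA replicates 1 and 3, T14-RA replicate 1, T7+RA replicate 1 and T14+RA replicate 1 (0.00105 to 0.0107). The first-week call was also lost with DESeq2 (0.00203) and with only the compared groups (0.00164), and the T14 call with DESeq2 (0.00268) and limma-voom (0.00157).

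Myod1, the bHLH factor of committed myoblasts, is at 1q22 (ENSRNOG00000011306). Its T0 libraries held 124, 150 and 71.3 CPM, a wide range. Without RA it stood at 76.3, 91.4 and 95.9 CPM at day 7 and at 63.7, 95.6 and 81.3 CPM at day 14. With RA it stood at 135, 161 and 149 CPM at day 7 and at 61.7, 77.0 and 56.2 CPM at day 14. The 3 T7+RA libraries were above all T7-RA, T14-RA and T14+RA libraries and overlapped T0. The T14-RA and T14+RA libraries overlapped. Between day 7 and day 14 with RA, Myod1 fell by 1.19 on the log2 scale (± 0.18 SE, adjusted p = 7.69e-07), a 2.29-fold drop, whereas without RA the log2 change of that week was -0.15 ± 0.19 (adjusted p = 0.768). The difference with RA was 0.77 ± 0.17 on the log2 scale at day 7, where the adjusted p of 0.00106 just missed the threshold, and -0.28 ± 0.20 at day 14 (adjusted p = 0.489). The RA changes of both days differed by -1.04 ± 0.27 on the log2 scale (day 14 minus day 7, adjusted p = 0.0369 by edgeR).

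The drop of Myod1 in the second week with RA passed under every alternative setting and with every library left out in turn. The RA difference at day 7 passed without any 1 of T0 replicates 2 and 3, T14-RA replicates 1 and 2 and T14+RA replicates 2 and 3 (adjusted p 0.000193 to 0.000908), with RLE factors (0.000993) and with the fit of only the compared groups (2.57e-05). The test of the difference between days no longer passed without any 1 of 8 libraries, namely T7-RA replicates 1 and 2, T14-RA replicates 2 and 3, T7+RA replicates 2 and 3 and T14+RA replicates 1 and 3 (0.0651 to 0.168). It also missed with DESeq2 (0.0716), limma-voom (0.0761) and limma-trend (0.113). The T14 term of Myod1 was -0.88 ± 0.24 (adjusted p = 0.00689) and passed without T0 replicate 3 or T14-RA replicate 2 (0.000131 to 0.000316). This term takes the RA difference as equal at both days, whereas the fitted differences were 0.77 at day 7 and -0.28 at day 14. The T14 term of Myod1 is thus not the plain fall from T0. Mean levels were 115 CPM at T0, 80.2 CPM in T14-RA and 65.0 CPM in T14+RA.

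Myog, the bHLH factor of differentiating myocytes, is at 13q13 (ENSRNOG00000030743), and its promoter is the one printed above with a MEF3 match, a MEF2 core and E-boxes. The T0 libraries held 37.2, 56.3 and 52.4 CPM, the T7-RA libraries 415, 407 and 485 CPM, and the T14-RA libraries 639, 645 and 632 CPM. With RA the values were 295, 341 and 312 CPM at day 7 and 540, 621 and 547 CPM at day 14. The 5 groups did not overlap and stood in the order T0, T7+RA, T7-RA, T14+RA and T14-RA. Myog rose 9.13-fold in the first week without RA (log2 3.19 ± 0.15 SE, adjusted p = 5.01e-27). In the second week it rose by a further 1.47-fold without RA (log2 0.55 ± 0.10, adjusted p = 7.37e-05) and by 1.80-fold with RA (log2 0.85 ± 0.11, adjusted p = 8.62e-09).

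With RA, Myog differed by -0.46 ± 0.11 on the log2 scale at day 7 (adjusted p = 0.00227) and by -0.17 ± 0.10 at day 14 (adjusted p = 0.367), and neither passed. The RA term was -0.30 ± 0.08 (adjusted p = 0.00501). The difference between both days was 0.29 ± 0.15 (adjusted p = 0.612), so a fading of the RA difference was not shown. The call in the second week without RA was lost without T7-RA replicate 1 or 2 or T14-RA replicate 1 (0.00114 to 0.00293) and with limma-trend (0.00401). The RA difference at day 7 passed without T0 replicate 2 (0.000587) and with the fit of only the compared groups (0.000407).

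Tcf12, the E protein that pairs with Myod1 and Myog, is at 8q24 (ENSRNOG00000057754). Its libraries held 85.5, 91.9 and 65.0 CPM at T0, 78.7, 80.6 and 87.1 CPM in T7-RA and 131, 74.4 and 98.2 CPM in T14-RA. With RA they held 79.8, 87.3 and 80.6 CPM at day 7 and 73.3, 75.4 and 72.5 CPM at day 14. T14-RA replicate 1 was the highest, the other libraries lay between 65.0 and 98.2 CPM, and T14-RA overlapped every other group. No comparison of Tcf12 passed. The nearest was RA at day 14, with a log2 difference of -0.49 ± 0.18 (adjusted p = 0.0651), which was -0.23 without T14-RA replicate 1 (adjusted p = 0.648).

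Mef2a, a MADS-box factor that is expressed in many tissues and works with the bHLH factors on muscle genes, is at 1q22 (ENSRNOG00000047756). Its T0 libraries held 78.6, 67.5 and 69.2 CPM, the T7-RA libraries 113, 98.1 and 176 CPM, and the T14-RA libraries 210, 174 and 268 CPM. With RA they held 72.7, 79.2 and 66.8 CPM at day 7 and 96.5, 88.0 and 111 CPM at day 14. T7+RA stood at the level of T0, and every T14-RA library was above every T14+RA library. T7-RA overlapped both T14-RA, through its replicate 3, and T14+RA. In the additive model Mef2a was higher by 1.86-fold for the T7 term (adjusted p = 0.000196) and by 2.87-fold for the T14 term (log2 1.52 ± 0.18 SE, adjusted p = 5.43e-10). It was 2.00-fold lower with RA (log2 -1.0 ± 0.13, adjusted p = 7.7e-09), the lowest p of the 7 factors for RA.

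By group, Mef2a rose 1.76-fold in the first week without RA (log2 0.82 ± 0.19, adjusted p = 0.000729) and 1.70-fold in the second (log2 0.76 ± 0.15, adjusted p = 0.000291). In the second week with RA the log2 change was 0.41 ± 0.19 (adjusted p = 0.174). At day 14 Mef2a was 2.22-fold lower with RA (log2 -1.15 ± 0.16, adjusted p = 1.19e-07). At day 7 the log2 difference was -0.80 ± 0.18 (adjusted p = 0.00141) and did not pass, and the RA differences of both days were not shown to differ (-0.35 ± 0.25, adjusted p = 0.778). The T14 call, the RA call and the day 14 call held with every library left out. The T7 call was lost without any 1 of the T0 replicates or T7-RA replicate 3 (0.00132 to 0.00293) and with limma-voom (0.00183). The first-week call was lost without any 1 of 8 libraries, namely the T0 replicates, T7-RA replicates 1 and 3, T7+RA replicates 1 and 3 and T14+RA replicate 1 (0.00102 to 0.0393). It was also lost with filterByExpr (0.00104), DESeq2 (0.00364), limma-voom (0.00499), limma-trend (0.0017) and only the compared groups (0.00197). The second-week call was lost without T7-RA replicate 1 or 2 or T14-RA replicate 1 or 3 (0.0023 to 0.0224) and with DESeq2 (0.00522), limma-trend (0.00612) and only the compared groups (0.0128). The RA difference at day 7 passed without T7-RA replicate 2 (0.000243) and with only the compared groups (0.000793), and it shrank to -0.52 without T7-RA replicate 3 (adjusted p = 0.105).

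Mef2c, a MEF2 member prominent in muscle and brain, is at 2q11 (ENSRNOG00000033134). Its T0 libraries held 91.0, 73.2 and 83.8 CPM, the T7-RA libraries 48.9, 52.4 and 77.0 CPM, and the T14-RA libraries 147, 124 and 135 CPM. With RA they held 45.6, 52.4 and 51.4 CPM at day 7 and 56.9, 53.4 and 99.7 CPM at day 14. The T14-RA libraries stood above all 12 others, and T14+RA replicate 3 stood apart from the other two of its group. Mef2c rose 2.31-fold in the second week without RA (log2 1.21 ± 0.19 SE, adjusted p = 1.25e-06), while the first-week log2 change was -0.50 ± 0.21 (adjusted p = 0.0701). In the second week with RA the log2 change was 0.44 ± 0.22 (adjusted p = 0.214), and 0.14 without T14+RA replicate 3.

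At day 14 Mef2c was 2.02-fold lower with RA (log2 -1.01 ± 0.18, adjusted p = 2.35e-05), and at day 7 the log2 difference was -0.24 ± 0.22 (adjusted p = 0.681). The difference between the days was -0.77 ± 0.29 and did not pass (adjusted p = 0.338), so a change confined to day 14 was not shown. The RA term was -0.69 ± 0.15 (adjusted p = 0.000482). It no longer passed without any 1 of T7-RA replicate 3, the T14-RA replicates and T14+RA replicates 1 and 2 (0.00175 to 0.0108), with DESeq2 (0.00458) or with limma-trend (0.00734). The day 14 call was lost without T14-RA replicate 1 or T14+RA replicate 1 or 2 (0.001004 to 0.00402).

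Mef2d, a broadly expressed MEF2 member, is at 2q34 (ENSRNOG00000031778). Its libraries held 70.4, 56.3 and 56.6 CPM at T0, 42.9, 55.1 and 47.9 CPM in T7-RA and 54.1, 51.4 and 66.0 CPM in T14-RA. With RA they held 38.5, 51.0 and 42.8 CPM at day 7 and 58.8, 44.0 and 58.0 CPM at day 14. The T0 libraries stood above all libraries of day 7 and overlapped both groups of day 14, and no comparison passed. The log2 changes of Mef2d lay between -0.36 for the T7 term (adjusted p = 0.194) and 0.29 for the second week with RA (adjusted p = 0.489).

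Because the MEF2 proteins share their binding site, their levels were also summed per kilobase. The sum ranged from 59.0 to 71.9 CPM per kb at T0, 63.2 to 89.4 in T7-RA, 97.9 to 136 in T14-RA, 47.9 to 56.9 in T7+RA and 56.5 to 77.5 CPM per kb in T14+RA. The groups with and without RA did not overlap at day 7 or at day 14, and the exact permutation test gave two-sided p = 0.1 at each day, the smallest that 3 against 3 libraries allow (0.15 adjusted over 6 comparisons of such ratios and sums). Mef2d was the most abundant MEF2 transcript at T0, with 44.5% ± 1.32 of the sum (SD, n = 3), against 34.9% ± 0.80 for Mef2a and 20.5% ± 1.06 for Mef2c. In T14-RA, Mef2a made up 58.0% ± 3.10 and Mef2d 23.2% ± 1.25. In T14+RA, Mef2a made up 46.0% ± 2.18 and Mef2d 37.6% ± 3.29, and the Mef2a share did not overlap that of T14-RA (exact permutation p = 0.1). At day 7 the Mef2a shares overlapped (means of 44.4% with RA and 54.8% without, exact permutation p = 0.2).

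The count ratio of Myog to Myod1 sets the myocyte factor against the myoblast factor within each library, so no scaling between libraries enters. It was 0.3, 0.375 and 0.735 at T0, 5.44, 4.46 and 5.06 in T7-RA and 10.0, 6.74 and 7.77 in T14-RA. With RA it was 2.18, 2.12 and 2.09 at day 7 and 8.75, 8.06 and 9.74 at day 14. At day 7 every library with RA was below every library without it (means of 2.13 and 4.99, exact permutation p = 0.1, the smallest possible). At day 14 the ratios overlapped (means of 8.85 and 8.18, exact permutation p = 0.6).

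**Figure D3:**
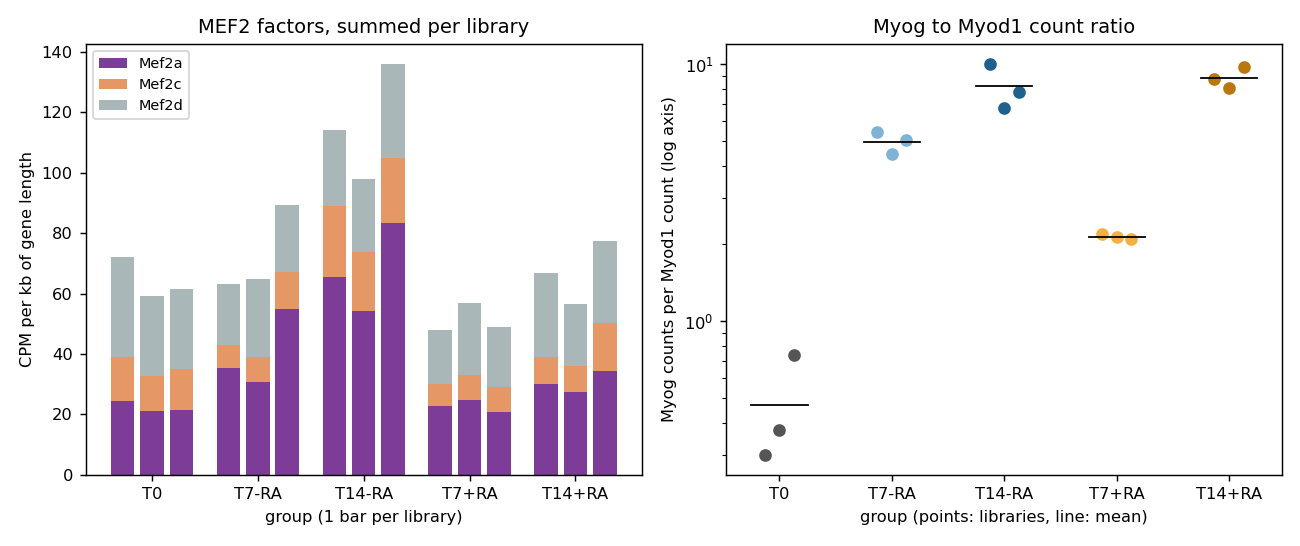
Left, CPM per kb of Mef2a, Mef2c and Mef2d stacked for each library (1 bar per library, linear axis from 0), with the tallest bars in T14-RA at 97.9 to 136 CPM per kb. Right, the ratio of Myog to Myod1 counts for each library on a log axis, where points are libraries and lines are means. The T7+RA ratios of 2.09 to 2.18 lie below the T7-RA ratios of 4.46 to 5.44, and the groups of day 14 overlap.

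Over the 15 libraries, the log2 CPM of Myog and Six4 had a Pearson r of 0.80, Mef2a and Mef2c 0.71, Mef2c and Mef2d 0.61, Myog and Mef2a 0.61, Mef2a and Myod1 -0.47 and Myog and Myod1 -0.41. These describe 5 groups of 3 libraries that share their time and treatment. Among 8378 genes with a mean count of at least 10, the genes most like Myog were Ephx1 (r = 0.986), cardiac troponin T (Tnnt2, 0.982), Jak2, embryonic myosin heavy chain (Myh3, 0.971) and Hsd17b4. Those most like Mef2a were the sarcomere protein gene Mypn (0.959), Serpinb7, Gpt2, Trim54 and Vash2. The nearest gene was Cd200 for Myod1 (0.898), Fcho2 for Six4 (0.949), Nexn for Mef2c (0.887), Zfp142 for Mef2d (0.892) and Sav1 for Tcf12 (0.76).

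Among the 3 partners and 14 inhibitors of the bHLH factors that were measured, 4 passed as lower and 1 as higher for the T14 term, against 8.85% and 8.47% of all genes. Of the 3 E proteins measured, 1 passed for the T14 term: Tcf3, which encodes E12 and E47, fell from 237 ± 25.8 CPM at T0 to 116 ± 14.6 CPM in T14-RA (SD, n = 3; T14 term -1.07, adjusted p = 2.69e-09). Tcf4 had a T14 term of -0.57 (adjusted p = 0.183). Of 14 bHLH inhibitors measured out of 21 listed, 3 were lower and 1 was higher for the T14 term (17.3% of all genes passed in either direction), with a median log2 of -0.46 against 0.05 over all genes. The 3 lower ones were Id1 (-1.68, adjusted p = 8.48e-07), Id2 (-1.24, 0.000451) and Id3 (-1.65, 5.7e-15), which sequester E proteins, and the higher one was the repressor Zeb1 (1.18, 1.96e-05). Msc and Mdfi were not analysed here.

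Of the 14 inhibitors, 2 were higher for the RA term, Id1 and Bhlhe40, and 1 was lower, Snai2 (3.33% and 3.07% of all genes), with a list median log2 of -0.06. The RA terms of Id2 (0.53, adjusted p = 0.136), Id3 (-0.27, 0.134) and Id4 (-1.70, 0.0192) did not pass, and those of Id3 and Id4 had the opposite sign to that of Id1. Id1 stood at 77.6 ± 9.30 CPM in T7+RA and 30.7 ± 7.55 CPM in T7-RA (SD, n = 3). At day 7 that was a log2 difference of 1.35 ± 0.24 SE (adjusted p = 2.58e-05), in the groups in which Myod1 stood at 149 and 87.9 CPM. At day 14 the Id1 difference was 0.46 ± 0.29 (adjusted p = 0.394), and the days were not shown to differ (adjusted p = 0.494). Bhlhe40, a bHLH repressor, had an RA term of 1.34 (adjusted p = 2.16e-13), and Snai2 one of -1.28 (adjusted p = 0.000104).

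Of the 8 measured genes among 17 listed upstream factors (homeodomain proteins, Eya coactivators, Pax factors and others), 1 was higher for the T14 term, Six4 itself (17.3% of all genes passed), with a list median log2 of -0.25 against 0.05 over all genes. For the RA term 1 was lower, Eya4, a coactivator of homeodomain proteins (-1.01, adjusted p = 5.8e-06; 6.39% of all genes passed), and the median was -0.56 against -0.01 over all genes. Eya4 stood at 71.8 ± 15.9 CPM in T7-RA and 36.2 ± 9.73 CPM in T7+RA, and at 54.6 ± 10.0 CPM in T14-RA and 26.8 ± 7.13 CPM in T14+RA (SD, n = 3). It passed at neither day alone (adjusted p = 0.00154 at day 7 and 0.00288 at day 14). Its relative Eya3 had an RA term of -0.60 that did not pass (adjusted p = 0.00227) but was lower with RA at day 14 (-0.96, adjusted p = 0.000503). The Eya3 differences were not shown to differ between days (adjusted p = 0.462). Msx1 had a T14 term of -2.35 that did not pass (adjusted p = 0.00442), Eya1 one of -0.24 (adjusted p = 0.527) and Pitx3 one of -0.73 (adjusted p = 0.575), and Pax7 was not analysed here.

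Of 22 measured genes among 30 listed MEF2 cofactors and related regulators, 1 was higher and 4 were lower for the T14 term (median log2 -0.21), and 1 was lower with RA. Over all genes 17.3% passed for T14 and 6.39% for RA. The higher one was Smyd1, a muscle histone methyltransferase, with 1 to 3 counts in the T0 libraries and 22 to 29 in the T14-RA libraries (fitted T14 term 3.34, adjusted p = 4.04e-09). Among the lower ones were the MEF2 repressor Hdac7 (-1.39, adjusted p = 1.74e-12), Vgll3 (-1.45, 5.77e-10) and Mrtfa (-1.03, 1.66e-08). The class IIa deacetylases Hdac4 and Hdac5 had T14 terms of -0.47 and -0.36 that did not pass (adjusted p = 0.16 and 0.127), and Hdac9 was not analysed here. Cabin1, a repressor of MEF2, was the gene lower with RA (-0.63, adjusted p = 0.000995).

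Of 29 measured muscle target genes among 32 listed, 22 were higher and 1 was lower for the T14 term (8.47% and 8.85% of all genes), with a median log2 of 4.73 against 0.05 over all genes. Mymx and Myl1 had 0 counts in every T0 library and were at least 26.1-fold and 99.6-fold higher in T14-RA against a floor of 3 counts over the T0 group, and the median was 4.71 with these bounds. The summed level of the 29 measured target genes was 1788 to 1966 CPM at T0, 5851 to 6581 in T7-RA, 20340 to 20920 in T14-RA, 5468 to 5966 in T7+RA and 11320 to 12370 CPM in T14+RA. The 4 with the lowest p were Myh3 (T14 term 6.93), the fast myosin light chain Mylpf (6.61), fast troponin T (Tnnt3, 6.83) and skeletal actin (Acta1, 6.18). With RA, 12 of the 29 were lower and 1 was higher by the RA term (3.07% and 3.33% of all genes; median log2 -0.31 against -0.01 over all genes). Myh3 stood at 5056 ± 139 CPM in T14-RA and 1874 ± 212 CPM in T14+RA (SD, n = 3), groups in which Myog stood at 638 ± 6.56 and 569 ± 44.6 CPM and Mef2a at 217 ± 47.4 and 98.4 ± 11.4 CPM. Mylpf had an RA term of -1.57 (adjusted p = 4.38e-24), and the 1 higher gene was integrin alpha 7 (Itga7, 1.77, adjusted p = 9.67e-28). By day, 7 targets were lower and 3 higher with RA at day 7 (Chrnb1, Sgca and Itga7, median log2 -0.12), and 12 were lower and 1 higher at day 14 (median log2 -0.62), against 3.17% and 4.81% of all genes in either direction. The target sums of T7-RA and T7+RA overlapped, but Itga7 stood at a mean of 432 CPM in T7-RA and 1707.5 CPM in T7+RA. Myh3 stood at 1338.5 and 579 CPM in these groups, and Mylpf at 1045.7 and 359 CPM. The overlap of the day 7 sums thus hides changes in both directions. The RA changes of both days differed for 3 targets at an adjusted p under 0.05, namely Chrnb1 (-1.08, adjusted p = 0.0127), Mymk (-1.34, 0.0322) and Mybph (-0.84, 0.0112), against 0.743% of all genes.

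**Figure D4:**
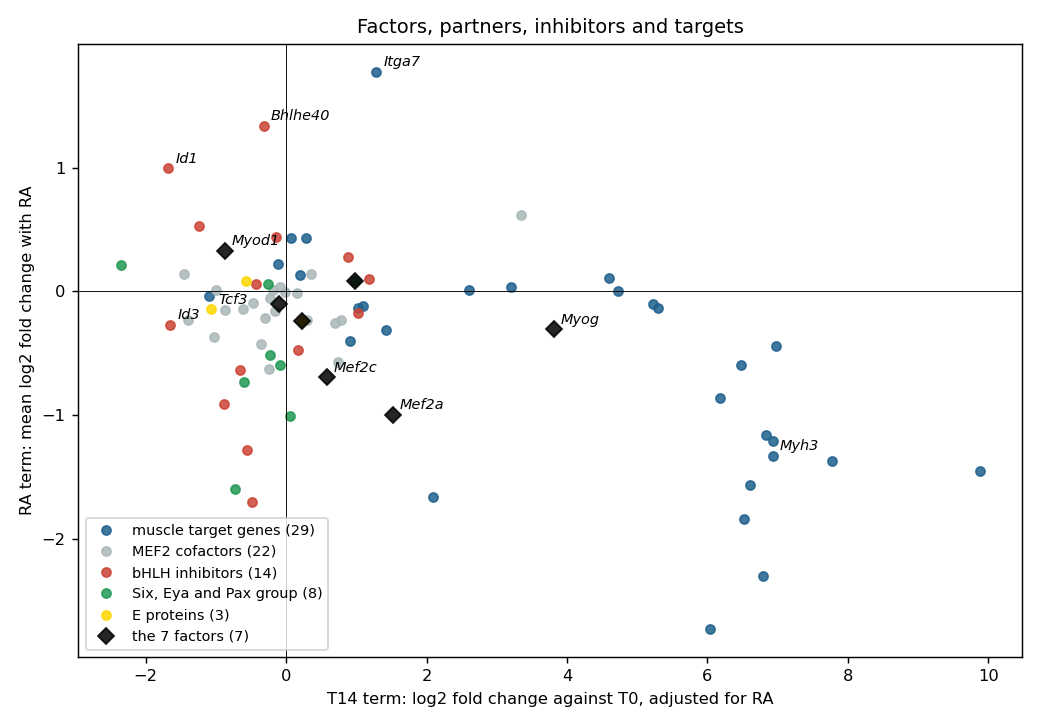
T14 term (horizontal axis, log2) against RA term (vertical axis, log2) from the additive edgeR fit for the 7 factors (black diamonds) and the 5 lists around them (coloured points), each point 1 gene. Muscle target genes extend far to the right and mostly below 0, Mef2a lies at 1.52 and -1.0, Myog at 3.81 and -0.30, and Id1 at -1.68 and 0.99.

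Other cell states moved along with these factors, and their part in the levels above was not tested. In bulk RNA, fewer cells of a type and less RNA per cell cannot be told apart. Of 10 proliferation genes, 7 were lower for the T14 term (8.85% of all genes), among them Mcm5 (-2.21), Mki67 (-1.95), Top2a (-1.42) and Mcm2 (-1.35). Their summed level was 2143 to 2326 CPM at T0, 1459 to 1522 in T7-RA, 797.6 to 851.9 in T14-RA, 1306 to 1356 in T7+RA and 567.3 to 728.8 CPM in T14+RA. For the RA term 1 of the 10 was lower (3.07% of all genes), Mcm2 (-0.59, adjusted p = 6.15e-05), and Mcm5 did not pass (-0.36, 0.0219). All 7 smooth muscle markers were measured, and 6 were lower for the T14 term, with the lowest p for Acta2 (-2.28, adjusted p = 1.45e-28), Actg2 (-2.08), Tagln (-1.73) and Cnn1 (-2.41). They summed to 16910 to 18660 CPM at T0, 4395 to 6019 in T7-RA, 3852 to 4028 in T14-RA, 5126 to 5759 in T7+RA and 4382 to 5192 CPM in T14+RA. This sum was highest at T0, where Myog and Six4 stood lowest, and most of it came from Acta2 and Tagln. With RA, 2 of the 7 smooth muscle markers were lower by the RA term (3.07% of all genes), Smtn (-1.03, adjusted p = 4.61e-09) and Actg2 (-0.50, 1.12e-05). At day 14 both were lower with RA, and Acta2 was higher (0.39, adjusted p = 0.000935).

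Of 13 myoblast markers, a list that includes Myod1, 8 were measured. For the RA term 3 were higher (3.33% of all genes), led by Itga7 and Ncam1 (0.94, adjusted p = 1.83e-14). The other 5 did not pass, among them Cdh15 (-0.04, adjusted p = 0.863) and Myod1 (0.33, 0.277). The 8 markers summed to 1958 to 2148 CPM at T0, 1746 to 1822 in T7-RA, 2001 to 2205 in T14-RA, 3771 to 3918 in T7+RA and 4105 to 4229 CPM in T14+RA. Most of the difference of this sum with RA came from Itga7 and Ncam1. In T14-RA and T14+RA, Itga7 stood at means of 782 and 2337 CPM, Ncam1 at 577 and 981 CPM and Cdh15 at 324 and 264 CPM. For the T14 term, desmin (Des, 2.61), Itga7 and Vcam1 were higher, the last with 0 counts in every T0 library, and Cdh15 was lower (-1.10). Of 10 fibroblast markers, 4 were measured, and their sum was 24630 to 37560 CPM at T0, 21200 to 25060 in T7-RA, 20440 to 20650 in T14-RA, 22610 to 25740 in T7+RA and 18450 to 23490 CPM in T14+RA, nearly all of it Col1a1. Dcn and Lum, among these, had 0 counts in every T0 library and 24 to 47 and 15 to 25 counts in the T14-RA libraries. Col1a1 was lower for the T14 term (-0.56, adjusted p = 7.17e-06), and Thy1 did not pass (-0.13, 0.454). For the RA term Dcn was higher (1.08, adjusted p = 0.000229), and Lum (-1.88, 0.000484) and Thy1 (-0.49, 5.26e-05) were lower. The 5 measured cardiac markers summed to 150.1 to 226.2 CPM at T0, 441.4 to 512 in T7-RA, 779.5 to 896.2 in T14-RA, 341.1 to 377.7 in T7+RA and 647.2 to 724.5 CPM in T14+RA, most of it after T0 from Tnnt2, which embryonic skeletal muscle also expresses. Myocd was lower for the T14 term (-1.03, adjusted p = 5.9e-05) and with RA (-1.0, adjusted p = 3.95e-05). Of 7 endothelial markers 1 had a row, Tek, which stood at 0 to 6.29 CPM in all libraries, and of 8 immune markers 1 had a row, Cd14, at 10.48 to 58.2 CPM.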

How the data were processed

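RNA of 15 H9c2 cultures was sequenced by the authors as paired-end, stranded mRNA libraries, trimmed, mapped and counted per gene on the Galaxy platform. The submitters' processing notes name HISAT2, featureCounts and the build Rnor_6.0. The annotation release, the strand setting of the counting and the handling of reads shared by related genes such as the Mef2 paralogs are not given in the sources used here. The authors deposited raw, unnormalized counts and kept a gene only when its 15 libraries together exceeded 20 counts (11574 genes, smallest sum 21). No further filter was applied. Groups and replicate numbers came from the sample titles.

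Counts were analysed in R 4.3.3 with edgeR 4.0.16 (TMM factors, robust quasi-likelihood F test), either with the terms T7, T14 and RA, as in the study's model, or with 1 mean for each of the 5 groups. Benjamini-Hochberg adjustment ran over all genes, with a threshold of 0.001, or 0.05 for the difference between the RA changes. SEs are the log2 fold change divided by the square root of F. The edgeR p-values rest on the spread between cultures of a group, estimated over all libraries of the fit with the help of other genes. Counting error is part of this spread. Between replicates of a group, chi-square per gene ran from 1.073 to 3.085, where counting error alone gives about 1. For the T7, T14 and RA terms, RA differences that are unequal between days also enter the spread. Myog/Myod1 ratios and MEF2 sums were tested by two-sided exact permutation (scipy 1.17.1). Alternatives were RLE factors, library size alone, filterByExpr, at least 10 counts in every library, DESeq2 1.42.0, limma-voom and limma-trend (limma 3.58.1), a replicate block, only the compared groups, the other threshold and each library left out. The code was tested on simulated data. Upstream sequences came from RefSeq's GRCr8 promoter table, a different build from that of the counts.

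The factors and gene lists were chosen with earlier results of these data known. All listed factors are named. Of each list, the genes named are up to 4 with the lowest p for T14, up to 2 for RA, and all E proteins, Id1, Id2, Id3, Msc, Mdfi, Pax7 and Hdac4, 5, 7 and 9. For likeness, they are the genes with the highest Pearson r. Tcf12 and Six4 also count in the E protein and upstream lists, and some target genes in the myoblast list. Nkx2-5, Tbx5, Mymx, Myl1, Id4, Sdc4, Cd82, Chrnb1, Sgca, Mymk and Mybph were named outside this rule, after the values were seen. A gene of the upstream list is not reported here and was left out of that list's counts.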

Additional observations from a re-analysis of the deposited data

Results flagged for a closer look

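Myod1 differed between the days in its response to RA. The RA change at day 14 minus that at day 7 was -1.04 on the log2 scale (± 0.27 SE, adjusted p = 0.0369 by edgeR). At day 7 the 3 cultures with RA stood at 149 ± 12.8 CPM and the 3 without at 87.9 ± 10.2 CPM, and at day 14 they stood at 65.0 ± 10.8 and 80.2 ± 16.0 CPM (SD, n = 3). The adjusted p ranged from 0.012 to 0.113 over the alternative settings and from 0.0108 to 0.168 with 1 library left out.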

How the results depend on the processing

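Counts of factors that passed changed as follows. At an adjusted p under 0.05 the T14 count was 5 (4 higher and 1 lower) against 3, and the RA term gave 3 against 2, where 35.4% and 14.7% of all genes passed. The T7 count was 2 with limma-voom, and the T14 count 2 with DESeq2 and limma-voom, each against 3. The RA term gave 1 with DESeq2 and 1 with limma-trend against 2, the first week without RA gave 1 with DESeq2 and 1 with only the compared groups, and 2 each with filterByExpr, limma-voom and limma-trend, against 3. The second week without RA gave 1 with limma-trend and 2 each with DESeq2 and only the compared groups, against 3. RA at day 7 gave 1 with RLE factors and 3 each with only the compared groups, at a threshold of 0.05 (7.41% of all genes) and with a replicate block, against 0. The difference between days gave 0 with DESeq2, limma-voom, limma-trend and a threshold of 0.001, against 1. With 1 library left out, counts ran from 1 to 3 for T7, 2 to 4 for T14, 1 to 2 for the RA term, 1 to 3 for the first week, 1 to 3 for the second week without RA, 0 to 2 for RA at day 7, 1 to 2 at day 14 and 0 to 1 for the difference between days. Causes were not tested. Changes that never passed turned sign for Tcf12 in the first week with RLE factors (log2 -0.00106) and filterByExpr (-0.00485) and with RA at day 7 under library size alone (-0.0171). With 1 library left out, sign turned for Myod1 at T7 (-0.392 to 0.0282) and in the second week without RA (-0.295 to 0.016), Mef2d at T14 (-0.175 to 0.0415), with RA at day 14 (-0.169 to 0.0461) and between days (-0.042 to 0.185), Six4 with RA at day 7 (-0.0594 to 0.155) and between days (-0.0459 to 0.205), and Tcf12 in the first week (-0.105 to 0.0965) and with RA at day 7 (-0.0324 to 0.0665). Library size alone moved the median of all genes to 0.13 for T7 and 0.15 for T14. The labels tie the replicate numbers to no shared culture or day. Same-numbered libraries had a mean correlation of deviations of 0.03 (-0.04 to 0.19) and different-numbered ones of -0.016 (-0.157 to 0.0837), and 8 of 15 libraries correlated best with their own number, so the numbers were not taken as pairs. With the replicate block, RA at day 7 passed for Myog (adjusted p = 0.000646 by edgeR), Myod1 (0.000248) and Mef2a (0.000324), and the block changed no other count.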
